A study of Mus musculus with 8 samples.

Results

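The comparison is that of high-fat diet (HFD) with chow in GFP+ cells of mouse subcutaneous adipose tissue (SAT), taken from RNAseq read counts per gene. It uses 4 of the 8 libraries in the series, chosen by tissue from the sample labels: HFD WT, HFD KO, chow WT and chow KO, with 1 library each. HFD was set against chow with the genotype as a block, and the genes reported first are those that differed in the same direction in both genotypes. The WT mice were Tie2e-cre; TERT+/+; mTmG and the KO mice (EC-Tert-KO) were Tie2e-cre; TERTfl/fl; mTmG. All were females aged 8 months, and the HFD mice had been on that diet since month 1. Both genotypes therefore carried the Cre transgene, driven by the Tie2e promoter, and the mTmG reporter, which switches a cell from membrane Tomato to membrane GFP (mG) once Cre has acted. SAT was the inguinal pad, and the mG+ cells were isolated from it by FACS. Whether a library held cells of 1 mouse or of several is not given in the sources used here. No genotype and diet had a replicate library. The p-values therefore rest on how far the diet difference in WT departs from that in KO, pooled over genes. That spread may be technical or a difference between genotypes, and it does not measure the spread between mice.

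White adipose tissue is fed by a dense capillary bed whose endothelial cells (EC) pass fatty acids from blood to adipocytes, and the bed has to grow when the tissue expands on HFD. The inguinal pad of female mice also holds the mammary gland, whose ducts are lined by keratin-rich epithelium, and a lymph node rich in lymphocytes. Tie2, the receptor whose promoter drives Cre here, is made by EC and by some blood cells.

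The 4 libraries held between 6214269 (HFD WT) and 18855772 (chow WT) counts, and between 16034 and 24688 genes had at least 1 count. Levels are given as counts or as CPM, which are counts scaled to the library's total and its TMM factor. Tert itself had 114 counts in HFD WT, 0 in HFD KO, 70 in chow WT and 11 in chow KO, so that each KO library was below the WT library of its diet. The marker lists showed that the sorted cells were mixed. Per kilobase of gene length, the median level of 20 pan-endothelial genes was 2.87 CPM in HFD WT, 2.13 in HFD KO, 4.14 in chow WT and 7.41 in chow KO. The median level of 16 T cell genes was between 71.1 and 139 CPM per kilobase, and that of 13 B cell genes between 54.9 and 87.5. The adipocyte gene Adipoq had 0 counts in 3 libraries and 6 in chow WT, and 9 of 15 adipocyte markers had too few counts to be tested. The WT libraries each stood apart in features that do not follow diet or genotype. In HFD WT the ribosomal-RNA-like transcript Gm26917 had 94337 CPM against 2063 to 6477 in the other libraries; its part in the low levels of that library was not tested, and TMM scaling without such genes gave 20 calls that held all 19. In chow WT the nuclear RNA Malat1 had 290 CPM against 5126 to 5877 CPM in the other 3 libraries, and 83 cytosolic ribosomal protein genes summed to 151181 CPM against 52677 to 66500.

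Of 54532 genes, 16622 had a mean of at least 10 counts over the 4 libraries and were tested. With edgeR (quasi-likelihood F test, p-values adjusted by Benjamini-Hochberg), 19 genes (0.114% of those tested) had an adjusted p under 0.05, of which 3 were higher and 16 lower on HFD. The direction was the same in WT and KO for 18 of them (0.108%), 3 higher (0.018%) and 15 lower (0.0902%). The genes that fell included genes of epithelium and milk (Krt8, Krt18, Krt19, Csn3), of immunoglobulins (Ighg3, Ighg2b and 4 variable segments), and Slc7a2, Prlr, Glycam1, Ptn and Tmem56. The 3 that were higher were an immunoglobulin variable segment and a pair of unnamed loci. The gene that did not agree was the pseudogene H2-Ea-ps, with 5496 counts in chow KO and 0 in the other 3 SAT libraries. Under a scaling common to the 8 libraries, its chow KO level was 341 CPM in SAT, 1038 in visceral adipose tissue (VAT) and 169 in muscle. In chow WT it was 0, 0.777 and 0.184 CPM in the same order. Whether the KO libraries of the diets differed in more than diet was not tested. At an unadjusted p under 0.05 there were 328 genes (1.97%), 118 higher (0.71%) and 210 lower (1.26%).

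These calls rest on the block and on the pooled spread: with 1 residual degree of freedom, edgeR took the spread of every gene from all genes. Without the genotype block 0 genes were called by edgeR (338 at an unadjusted p under 0.05), and with all 8 libraries in the fit, which takes the spread from VAT and muscle too, 0 were called (1398 unadjusted). Leaving out 1 SAT library from the 8-library fit gave 759 calls without chow KO, 7 of them among the 19, 1 call without chow WT, and 0 calls without HFD WT (1518 unadjusted) or HFD KO (2107 unadjusted). DESeq2's Wald test in the blocked design called 19 genes, of which 13 were shared with edgeR's 19.

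**Figure D1:**
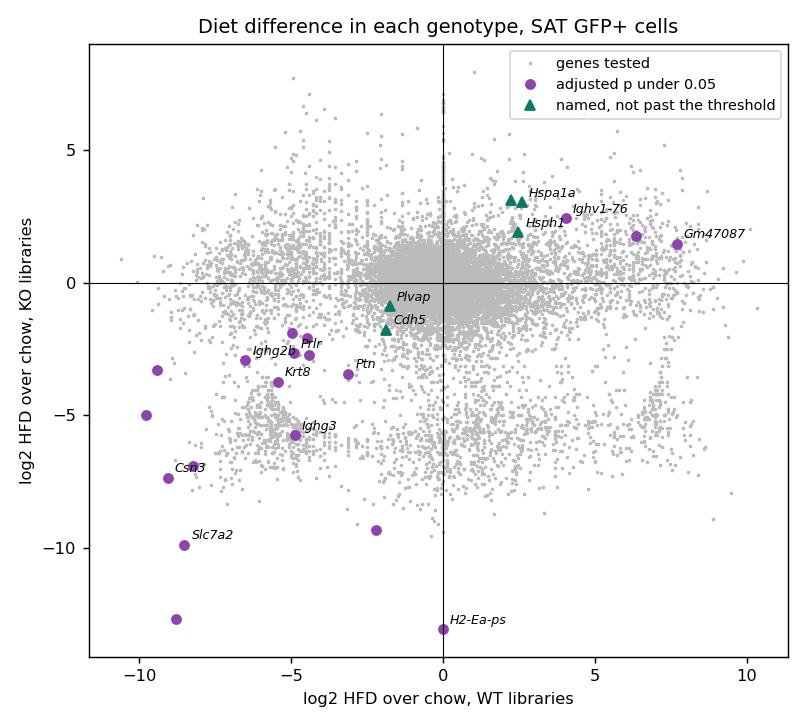
Each point is 1 of 16622 genes, with the log2 ratio of HFD to chow in the WT libraries (x axis) and in the KO libraries (y axis). Filled circles are the 19 genes past the threshold, most of them at the lower left, and triangles are named genes that did not pass it; the bands away from the axes hold genes with 0 counts in 1 or more libraries.

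The diet difference in WT and that in KO were close to uncorrelated across genes. The sign was the same for 43.3% of the 16622 genes, with 2630 genes (15.8%) higher and 4574 (27.5%) lower on HFD in both genotypes. With library totals in place of TMM these were 20.6% and 21.7%, so the lean to lower genes, and the share against which the gene lists are read, moved with the scaling. The log2 ratios of the genotypes had a Pearson correlation of 0.016 and a Spearman correlation of −0.086 across genes, which are not independent replicates. The HFD libraries were no more alike than some pairs of different diets: log2 CPM of HFD WT and HFD KO correlated at 0.704, and each of them correlated with chow KO at 0.80 and 0.81. Genes without overlap, with both HFD libraries on the same side of both chow libraries, numbered 1700 higher (10.2%) and 3102 lower (18.7%). Depth moved with diet, and 531 tested genes had 0 counts in both HFD libraries against 20 in both chow libraries. After thinning to equal totals these were 536 and 51. Both pairs of numbers were counted over genes that passed the filter on unthinned counts, to which the deeper chow libraries gave more. A gene could so be tested through chow alone, and thinning cannot separate this gap from depth or from the filter.

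The mammary and skin epithelial genes were the clearest group. Krt8 (chromosome 15, 101996698 to 102004482, GRCm38), a keratin of simple epithelia, had 9 counts in HFD WT and 73 in HFD KO against 1044 in chow WT and 1350 in chow KO. In CPM these were 1.41, 6.11, 62.8 and 81.9, so that both HFD libraries lay far below both chow libraries. Krt8 fell by 4.51 on the log2 scale (SE 0.685, adjusted p = 1.35e-07 by edgeR), which is 44.7-fold lower in WT and 13.4-fold lower in KO. Its pairing partner Krt18 had 19, 181, 1561 and 927 counts in HFD WT, HFD KO, chow WT and chow KO, and fell by 3.34 (SE 0.67, edgeR adjusted p = 0.00105). Krt19, a keratin of ductal cells, had 23, 140, 1280 and 1295 counts in the same order and fell by 3.54 (SE 0.643, edgeR adjusted p = 7.79e-05). For all 3 keratins the HFD WT library was the lowest of the 4, and in fold terms the chow libraries were closer to each other than either was to its HFD counterpart.

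Csn3, the milk protein kappa-casein, had 0 counts in both HFD libraries against 345 in chow WT and 104 in chow KO (edgeR adjusted p = 0.0155). Set against 3 counts per HFD library, it was at least 44.3-fold lower in WT and at least 25.1-fold lower in KO. Prlr (chromosome 15, 10177238 to 10349180), the receptor for prolactin, had 7 and 117 counts on HFD in WT and KO against 565 and 1023 on chow. It fell by 3.66 on the log2 scale (SE 0.731, edgeR adjusted p = 0.00105). Glycam1 (chromosome 15, 103562759 to 103565081) codes for a mucin-like protein secreted in milk and carried by high endothelial venules of lymph nodes as a ligand of L-selectin. It had 32 and 90 counts on HFD against 1848 and 523 on chow in WT and KO, and fell by 3.24 (SE 0.657, edgeR adjusted p = 0.00123). For each of these 3 genes both HFD libraries were below both chow libraries.

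Of 18 mammary and skin epithelial markers, 4 passed the test, all lower (Krt8, Krt19, Krt18 and Csn3), against 0.0963% of all genes tested. In both genotypes 16 of the 18 were lower on HFD, and the same 16 had no overlap between diets, against 27.5% and 18.7% of all genes; all 18 were tested. Of the others, Epcam, an adhesion protein of epithelial cells, had 52, 77, 735 and 316 counts in HFD WT, HFD KO, chow WT and chow KO. Cldn3, a tight junction claudin, had 0, 0, 183 and 95. Sfn and Krt17 were the exceptions, with 51.2, 50.2, 35.3 and 53.8 CPM for Sfn. The median log2 ratio over the list was −4.50 in WT and −3.82 in KO, against −0.19 and −0.10 over all genes. With genes at 0 counts set at 3 counts per library, the median was 6.94-fold lower in WT and 7.09-fold lower in KO. The list summed to 98.2 CPM in HFD WT and 120 in HFD KO, against 446 in chow WT and 412 in chow KO, and 6 of its members had 0 counts in both HFD libraries. In these bulk libraries, fewer cells of a type and less RNA per cell cannot be told apart, here and in every group described.

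**Figure D2:**
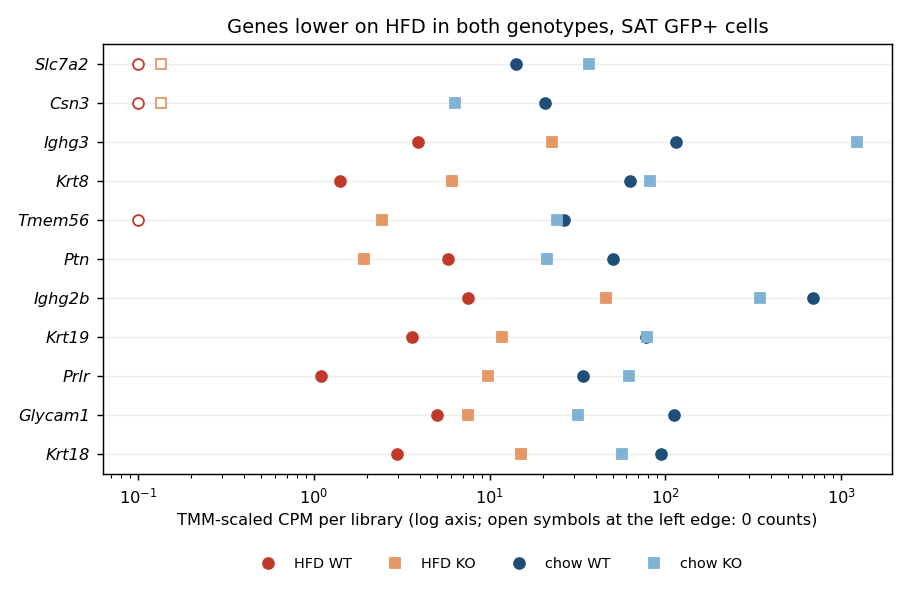
Level of 11 named genes past the threshold and lower on HFD in both genotypes, as TMM-scaled CPM on a log axis, with 1 symbol per library (circles WT, squares KO). For every gene both HFD symbols lie left of both chow symbols, and open symbols at the left edge stand for 0 counts (both HFD libraries for Slc7a2 and Csn3, HFD WT for Tmem56).

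Immunoglobulin genes, the products of B cells and plasma cells, formed the other large share of the calls. Ighg3 (chromosome 12, 113356224 to 113361232), the constant region of the IgG3 heavy chain, had 25 and 270 counts on HFD in WT and KO against 1919 and 20161 on chow. It fell by 5.35 on the log2 scale (SE 0.73, edgeR adjusted p = 1.03e-09), 29.6-fold in WT and 54.2-fold in KO. Ighg2b (chromosome 12, 113302965 to 113307933), that of IgG2b, had 48 and 547 counts on HFD against 11425 and 5724 on chow, and fell by 4.67 (SE 0.724, edgeR adjusted p = 2.96e-07). Both genes had their lowest level in HFD WT, and on chow Ighg2b was the higher in WT and Ighg3 the higher in KO.

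Not every heavy chain followed. Ighg2c had 1533 and 4260 counts on HFD in WT and KO against 4482 and 1563 on chow, higher in KO and lower in WT as CPM (edgeR adjusted p = 1). Igha, the IgA constant region, had 17, 295, 836 and 404 counts in HFD WT, HFD KO, chow WT and chow KO, and its KO libraries had 24.7 and 24.5 CPM. Jchain, which joins IgA and IgM into polymers, had 176, 533, 3570 and 1966 counts (edgeR adjusted p = 0.0744), and Igkc, the kappa light chain, had 761, 727, 1876 and 1458 CPM. In the list of plasma cell and immunoglobulin genes, 2 of 11 tested members passed the test, both lower (Ighg3 and Ighg2b), against 0.0963% of all genes. Of the 11, 8 were lower and 1 higher in both genotypes (27.5% and 15.8% of all genes), and the list summed to 1249 and 1406 CPM on HFD against 3478 and 3523 on chow. Xbp1, a transcription factor of the secretory state, did not pass (edgeR adjusted p = 1), and had 112 and 121 CPM on HFD against 139 and 152 on chow.

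Of 142 immunoglobulin variable segments tested, 86 were lower and 6 higher on HFD in both genotypes (27.5% and 15.8% of all genes), and 5 passed the test (0.114% of all genes). Ighv2-2 (0, 0, 284 and 4189 counts in HFD WT, HFD KO, chow WT and chow KO), Igkv8-24 (0, 28, 191 and 4748), Igkv4-57-1 (0, 0, 566 and 20) and Igkv6-17 (42, 0, 499 and 415) fell, while Ighv1-76 rose, with 320 and 345 counts on HFD against 50 and 88 on chow. Ighv1-76 was higher by 3.23 on the log2 scale (SE 0.756, edgeR adjusted p = 0.0186), 16.6-fold in WT and 5.41-fold in KO. Variable segments are near-identical members of large families and their counts may be split between copies, so these values are uncertain. They and the loci of the next paragraph fall outside the rule for named genes and were named after their values were seen.

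The other called genes had no list in common. Slc7a2 (chromosome 8, 40862396 to 40922308), a transporter of arginine and other cationic amino acids, had 0 counts in both HFD libraries against 235 in chow WT and 608 in chow KO (edgeR adjusted p = 6.26e-08). It was at least 30.2-fold lower in WT and at least 147-fold lower in KO. Ptn (chromosome 6, 36714929 to 36810220), the heparin-binding growth factor pleiotrophin, had 37 and 23 counts on HFD in WT and KO against 837 and 351 on chow, and fell by 3.29 (SE 0.775, edgeR adjusted p = 0.0203). Its change was close to even, 8.71-fold lower in WT and 11.1-fold in KO. Tmem56 had 0 and 29 counts on HFD against 440 and 397 on chow (edgeR adjusted p = 0.00482). Mlph, which links melanosomes to myosin, had 0, 0, 196 and 146 counts in HFD WT, HFD KO, chow WT and chow KO, and missed the threshold (edgeR adjusted p = 0.197). Gm37589 and Gm47087, annotated only as loci that await experimental evidence (TEC), had 368 and 191, and 291 and 241 counts on HFD, against 11 and 78, and 3 and 120 on chow (edgeR adjusted p = 0.0186 and 0.048). The chow WT library was the lowest for both. Over the 640 TEC loci tested, the median log2 ratio was 4.42 in WT and 0.10 in KO, and the part of that library in these calls was not tested.

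Endothelial identity genes were lower on HFD in almost every case, though none passed the threshold. Cdh5, the VE-cadherin of endothelial junctions, had 94 and 275 counts on HFD in WT and KO against 894 and 1299 on chow, or 14.7 and 23 CPM against 53.8 and 78.8. The difference was −1.82 on the log2 scale (SE 0.584, unadjusted p = 0.00181, adjusted p = 0.558 by edgeR), 3.66-fold lower in WT and 3.43-fold in KO. Plvap, which forms the diaphragms of fenestrated capillaries, had 27.6 and 57.0 CPM on HFD against 93.3 and 106 on chow, a log2 difference of −1.32 (SE 0.547, unadjusted p = 0.0157, adjusted p = 1 by edgeR). Emcn, the venous and capillary sialomucin endomucin, had 20 and 34 counts on HFD against 296 and 246 on chow, and Sox18, an endothelial transcription factor, had 48 and 19 against 319 and 237. In each of these genes the diets did not overlap.

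The more abundant endothelial genes differed less. Pecam1, the junctional adhesion molecule CD31, had 156 and 221 CPM on HFD in WT and KO against 263 and 242 on chow (log2 difference −0.44, SE 0.56, edgeR adjusted p = 1). Eng, the TGF-beta co-receptor endoglin, had 69.5 and 36.6 CPM against 80.9 and 80.4. Vwf and Cldn5 overlapped between diets, with 61.4 and 32.3 CPM on HFD against 56.1 and 48.4 on chow for Vwf. The VEGF receptors Kdr and Flt1 were set apart by chow KO: Flt1 had 19.5 and 7.95 CPM on HFD against 25.6 in chow WT and 82.4 in chow KO, and Kdr 25.9 and 19.2 against 26.7 and 87.4.

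Over the list, 0 of 20 pan-endothelial genes passed edgeR's threshold and 7 had an unadjusted p under 0.05, all lower (1.26% of all genes were). Of the 20, 18 were lower in both genotypes (27.5% of all genes were) and 17 did not overlap between diets (18.7% of all genes). The median log2 ratio was −0.63 in WT and −1.66 in KO, and the list summed to 517 and 536 CPM on HFD against 844 and 1091 on chow. Members of this and other lists that had not passed and were neither among the fixed genes nor among the 3 most abundant of their list, such as Emcn, Sox18, Flt1 and Kdr, were named after their values were seen.

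**Figure D3:**
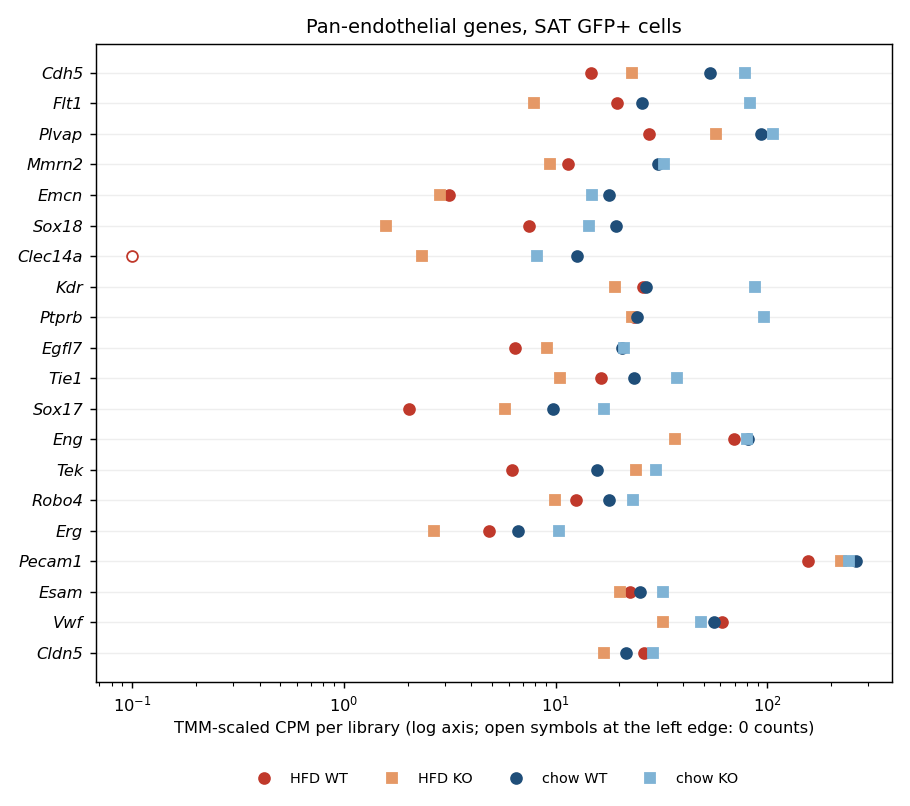
Level of the 20 pan-endothelial genes in each of the 4 libraries, as TMM-scaled CPM on a log axis (circles WT, squares KO), ordered from top by the p of the blocked fit. In 17 of the 20 both HFD symbols lie left of both chow symbols, with the exceptions of Tek, Vwf and Cldn5.

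The genes by which capillaries of fat take up lipid were lower in part. Cav1, the coat protein of caveolae, had 158 and 117 counts on HFD in WT and KO against 900 and 1417 on chow, or 24.7 and 9.79 CPM against 54.1 and 86.0 (edgeR adjusted p = 0.248). Cd36, the fatty acid translocase, had 140 and 79.8 CPM on HFD against 143 and 204 on chow, so that its WT libraries were alike (log2 difference −0.03) and its KO libraries were not (−1.35). Gpihbp1, which anchors lipoprotein lipase on the capillary wall, had 5.0 and 10.8 CPM on HFD against 11.5 and 15.2 on chow. Lpl, the lipase itself, overlapped between diets with 79.0 and 65.8 CPM on HFD against 59.4 and 104 on chow, as did Fabp4, a fatty acid carrier, with 141 and 76.9 against 104 and 158. Of 20 genes in the list, 14 were lower in both genotypes (27.5% of all genes) and 13 did not overlap (18.7%). None passed edgeR's test and 4 had an unadjusted p under 0.05 (Cav1, Btnl9, Cavin2 and Aqp7), all lower (1.26% of all genes).

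Tissue macrophage genes were lower on HFD in both genotypes for 12 of 15 (27.5% of all genes). No gene was past edgeR's threshold and 5 had an unadjusted p under 0.05, all lower (1.26% of all genes). C1qb, a chain of complement C1q made by resident macrophages, had 39.0 and 27.2 CPM on HFD in WT and KO against 140 and 56.6 on chow. Adgre1, the macrophage antigen F4/80, had 22.6 and 17.4 against 75.4 and 38.4, and Lyz2, lysozyme, had 416 and 237 against 1236 and 426. Both HFD libraries were below both chow libraries for these 3 genes, and chow WT was the highest each time. The list summed to 896 and 555 CPM on HFD against 2181 and 1033 on chow. Markers of lipid-associated macrophages, a state described in obese fat, were lower in both genotypes for 7 of 18 and higher for 1 (Spp1, with 47, 70, 65 and 48 counts in HFD WT, HFD KO, chow WT and chow KO). Trem2, the receptor that defines this state, had 15, 43, 86 and 34 counts.

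T cell genes were lower on HFD in WT and higher in KO by their summed level. B cell genes were lower in WT and differed little in KO. Of 16 T cell genes, 3 were lower in both genotypes and none higher (27.5% and 15.8% of all genes). The T cell list summed to 3660 and 4375 CPM on HFD in WT and KO against 6638 and 3571 on chow, so that HFD lay below chow in WT and above it in KO. Of 13 B cell genes, 6 were lower and 1 higher in both genotypes, against the same shares. In KO alone 8 were lower and 5 higher, with a median log2 ratio of −0.13 against −0.10 over all genes. The B cell list summed to 3468 and 3784 CPM on HFD against 6186 and 4059 on chow, and Cd79a, the signalling chain of the B cell receptor, had 2046, 2844, 9864 and 5096 counts in HFD WT, HFD KO, chow WT and chow KO. Neutrophil genes were lower in both genotypes for 8 of 13 (27.5% of all genes). Their summed level of 395 CPM in chow WT, however, stood against 89.6 to 117 in the other libraries. No gene of these 3 lists passed edgeR's threshold. At edgeR's unadjusted p under 0.05, 3 neutrophil genes, 1 T cell gene and 0 B cell genes were lower (1.26% of all genes) and none higher (0.71%).

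**Figure D4:**
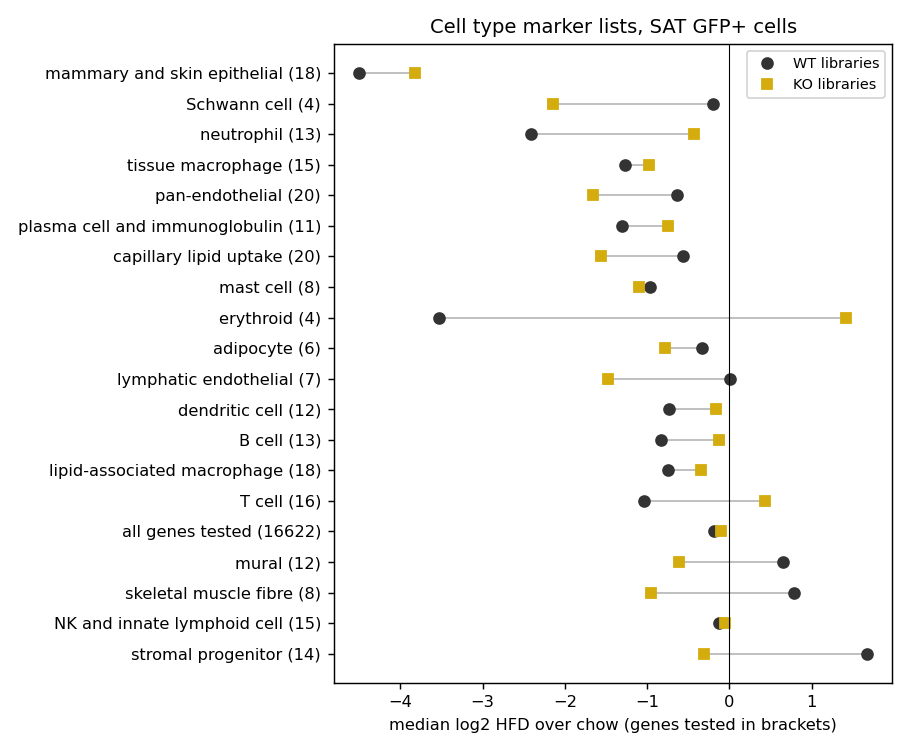
Median log2 ratio of HFD to chow over each cell type marker list, in the WT libraries (circles) and the KO libraries (squares), with the number of genes tested in brackets and all genes for comparison. Epithelial genes lie at −4.50 and −3.82, endothelial, capillary, macrophage and plasma cell lists lie left of 0 in both genotypes, and the stromal list lies at 1.67 in WT and −0.31 in KO.

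The markers of stromal progenitors and collagens moved with the chow WT library. The 14 stromal genes summed to 3878 CPM in HFD WT, 3455 in HFD KO and 4572 in chow KO, but to 1223 in chow WT. All 14 were therefore higher on HFD in WT and 11 were lower in KO, with 3 higher in both (Pi16, Loxl1 and Serpinf1), against 15.8% of all genes. Pdgfra, the receptor that marks these cells, had 54.0 and 40.1 CPM on HFD in WT and KO against 14.3 and 94.3 on chow (edgeR adjusted p = 1). The low value of 1 chow library and an effect of diet cannot be told apart in the WT pair.

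Of the 31 pathway lists none had a member past the threshold, and the heat shock and chaperone genes were the only list of the 50 with a median above 0 in both genotypes (0.49 in WT and 0.90 in KO), while with library totals there were 2 such lists. Heat shock proteins refold or hold damaged proteins, and the inducible ones are switched on by heat shock factor when cells are stressed. Hspa1a, the inducible HSP70, had 10158 and 21772 counts on HFD in WT and KO against 4354 and 3656 on chow, or 1586 and 1822 CPM against 262 and 222. Hspa1b, its near-identical neighbour, had 3293 and 3883 CPM against 697 and 447. Hsph1, the HSP110 that recharges HSP70, had 808 and 1021 CPM against 145 and 275. For these 3 genes HFD lay well above chow in both genotypes. All 3 were also filled in by the naming rule, which takes only uncalled genes without overlap. The counts of Hspa1a and Hspa1b may be split between the pair and are uncertain one by one.

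The log2 difference was 2.82 for Hspa1a (SE 0.76, unadjusted p = 0.000209, adjusted p = 0.129 by edgeR), 2.68 for Hspa1b (SE 0.864, adjusted p = 0.583) and 2.18 for Hsph1 (SE 0.679, adjusted p = 0.467). Hspa1a passed the threshold with library totals (edgeR adjusted p = 0.0406) or upper quartile scaling (0.0404), and all 3 passed it by DESeq2's Wald test (adjusted p = 1.04e-09 for Hspa1a, 2.99e-08 for Hspa1b and 9.87e-05 for Hsph1). None of the 3 passed edgeR's test with DESeq2 size factors (0.0577 for Hspa1a), other count filters or thinning. Nor did any pass without the genotype block (0.768 for Hspa1a) or with all 8 libraries (0.13 for Hspa1a and 0.173 for the others). Dnajb1, the co-chaperone of HSP70, had 599 and 682 CPM on HFD against 351 and 205 on chow, and Dnaja1 had 697 and 678 against 362 and 469, without overlap. Bag3, an HSP70 partner, had 92.4 and 68.4 CPM on HFD against 14.3 in chow WT and 66.6 in chow KO. The constitutive chaperones Hspa8 and Hsp90ab1 overlapped between diets, with 2714 and 3200 CPM on HFD against 4375 and 2022 on chow for Hspa8, and Hsf1, the heat shock factor itself, had 82.1 and 84.3 against 71.9 and 83.8. Of 14 genes, 9 were higher in both genotypes (15.8% of all genes were) and none lower, and 7 did not overlap (10.2%). None passed edgeR's test and 4 had an unadjusted p under 0.05, all higher (0.71% of all genes).

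The promoters of the HSP70 pair are shown because heat shock factor acts through them and because they show how alike the genes are. They are the 250 bases before the RefSeq start of each gene (GRCm38.p6, minus strand, 5′ to 3′), chr17:34972157-34972406 for Hspa1a and chr17:34959239-34959488 for Hspa1b, with a match to the core of the heat shock element in capitals.
Hspa1a: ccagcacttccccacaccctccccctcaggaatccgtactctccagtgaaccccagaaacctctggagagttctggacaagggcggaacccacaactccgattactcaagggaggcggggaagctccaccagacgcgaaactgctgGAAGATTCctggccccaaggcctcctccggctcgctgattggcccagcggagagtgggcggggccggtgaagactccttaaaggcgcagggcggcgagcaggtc
Hspa1b: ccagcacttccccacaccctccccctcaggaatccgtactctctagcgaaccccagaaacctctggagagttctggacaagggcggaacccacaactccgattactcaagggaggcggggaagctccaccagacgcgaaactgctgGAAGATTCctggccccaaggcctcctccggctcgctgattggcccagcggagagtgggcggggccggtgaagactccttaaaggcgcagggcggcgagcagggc
The sequences shared 247 of 250 bases (98.8%). The motif searched was GAANNTTC, which reads the same on both strands, and the match began 104 bases before the start in both genes. In windows from 250 bases before to 50 after the start, 7.86% of 32851 RefSeq promoters held the motif, as did 9 of the 14 promoters of the 9 listed heat shock genes found in the table. Counted by gene, 9.03% of 27036 genes and 8 of these 9 had it in at least 1 promoter. The members are not independent, since Hspa1a and Hspa1b are near copies and the windows of Hspe1 and Hspd1 overlap. The motif TTCNNNGAA, likewise the same on both strands and searched in the named lower genes, was held by 2 of the 6 found (Glycam1 and Prlr), against 9.55% of all genes. A match of letters is a description and shows no binding in these cells.

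**Figure D5:**
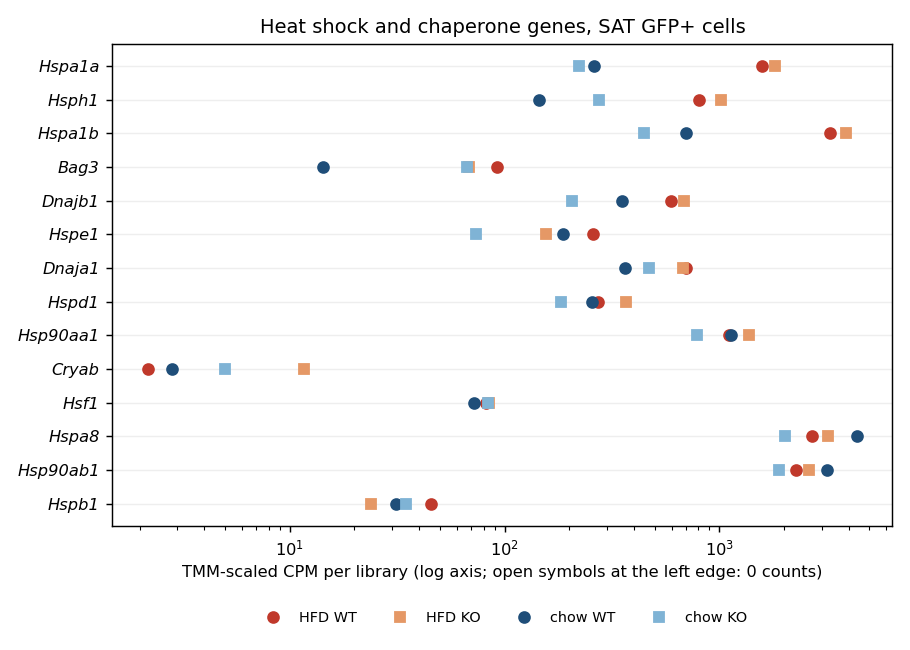
Level of the 14 heat shock and chaperone genes in each of the 4 libraries, as TMM-scaled CPM on a log axis (circles WT, squares KO), ordered from top by the p of the blocked fit. Both HFD symbols lie right of both chow symbols for Hspa1a, Hsph1, Hspa1b, Bag3, Dnajb1, Dnaja1 and Hspd1, and the symbols of the lower rows mix.

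The other genes filled in by the naming rule on the higher side were given as values only, since none passed the threshold. Hist1h1e, a linker histone, had 14.1 and 12.2 CPM on HFD in WT and KO against 1.68 and 1.58 on chow. Mgst3, a microsomal glutathione transferase, had 16.9 and 7.03 against 3.37 and 1.76. Jpx, a noncoding RNA near the X inactivation centre, had 6.09 and 7.95 against 1.80 and 2.49. Amd2, Cpxm2, Tdrd9, Krt83, Nckap5los and Mir5107 were filled in likewise, at edgeR adjusted p between 0.261 and 1. The rule takes only genes without overlap here, so the lack of overlap is no finding about them.

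Lists of metabolism and inflammation had no gene past the threshold, and their counts are read against the 27.5% of all genes lower and 15.8% higher in both genotypes. Cholesterol synthesis genes were lower in both genotypes for 13 of 23 and higher for 1. Sqle, squalene epoxidase, had 12 and 6.19 CPM on HFD in WT and KO against 20.1 and 21.0 on chow. Interferon-stimulated genes were lower in both for 13 of 24 and higher for 2, and Ifit3, an antiviral protein, had 26, 78, 527 and 250 counts in HFD WT, HFD KO, chow WT and chow KO. MHC class II genes were lower in both for 6 of 10. Fatty acid oxidation and PPAR target genes were lower in both for 5 of 19 and higher for 2, close to the shares of all genes. Over the 48 lists without a called member, 14 members were higher and 38 lower at an unadjusted p under 0.05 by edgeR, of 867 tested. Over all genes these shares were 0.71% and 1.26%. A gene in more than 1 list, such as Apoe or Ctsb, was counted in each.

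Senescence and hypoxia genes that this study followed in KO against WT gave no call for HFD against chow, which is a different contrast. Cdkn1a, the cell cycle inhibitor p21, had 122 and 66.7 CPM on HFD in WT and KO against 33.9 and 140 on chow, higher in WT and lower in KO (edgeR adjusted p = 1). Cdkn2a, which codes for p16 and p19, had 0, 41, 8 and 8 counts in HFD WT, HFD KO, chow WT and chow KO. Hif1a, the hypoxia-inducible factor, had 99.5 and 137 CPM on HFD against 123 and 171 on chow, a log2 difference of −0.32 (SE 0.53, edgeR adjusted p = 1).

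Levels were last compared with all 6 chow libraries, those of VAT and gastrocnemius muscle included, under a scaling common to the 8 libraries. Of the 18 agreeing calls, 5 lay outside the range of all 6. Slc7a2, Ighg2b and Ighv2-2 were below it and Ighv1-76 and Gm47087 above. The keratins, Csn3, Prlr and Ptn were within it, and VAT and muscle on chow were low as well: Krt8 had 1.30 and 5.64 CPM in HFD WT and HFD KO, 0.666 to 9.76 in VAT and muscle, and 64.6 and 83.7 in SAT on chow. Glycam1 was within the range too, but muscle on chow was not low. It had 26.8 CPM in WT muscle and 47.1 in KO muscle, against 4.63 and 6.95 in HFD WT and HFD KO. The epithelial list summed to 90.9 and 111 CPM on HFD, 25.1 to 91.6 in VAT and muscle, and 459 and 421 in SAT on chow. For the endothelial genes the order was different. Cdh5 had 13.6 and 21.2 CPM in HFD WT and HFD KO, 55.3 and 80.6 in SAT on chow, and 219 to 370 in VAT and muscle, so that HFD SAT was the lowest of all, as it was for Plvap, Pecam1, Cd36 and Gpihbp1. Fabp4 and Lpl were within the range, with 130 and 73.2 CPM in HFD WT against 107 and 61.1 in SAT of chow WT. Hsph1 was higher on HFD than in every chow library, while Hspa1a and Hspa1b were within the range, with muscle libraries at 983 and 1514 CPM for Hspa1a.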

How the data were processed

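RNA of FACS-sorted mG+ cells was isolated with an RNeasy kit per the labels (the paper's methods give Trizol), and libraries were made with a SMARTER mRNA kit. The authors deposited whole-number read counts per Ensembl gene, with no normalization. Per the labels' processing notes, HISAT2 2.0.5 and the build GRCm38 (mm10) were used. The counting program and the use of strand are not given in the sources used here, so a gene and its antisense partner cannot be told apart. Depth is the total count of each library, and a count of 3 was the floor for bounds, which cover counting error only.

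Samples were grouped by tissue, diet and genotype in the labels. Genes averaging 10 or more counts across the SAT libraries were tested with edgeR 4.0.16 (R 4.3.3): TMM scaling over all genes, robust quasi-likelihood fit, genotype and diet as terms, Benjamini-Hochberg adjustment at 0.05. The test was run on simulated data with less spread than the libraries here and with the same diet effect in both genotypes. That run therefore does not show how the test behaves on these data. Within-genotype log2 ratios used a prior count of 0.5, and a gene agreed when both ratios had the same sign and neither pair had 3 counts or fewer in both libraries. The 50 gene lists (19 of cell types, 31 of pathways) were described by counts and medians without a set test. The members and lists were chosen with earlier results of these data known.

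Named genes were up to 12 each way that passed the test, agreed, had a mean of at least 50 counts and were no predicted gene, pseudogene, clone or variable segment, ranked by the smaller of their 2 log2 ratios and filled with uncalled genes without overlap. The called members of each list, or else some of its 3 most abundant ones, and 14 fixed genes were added. Promoters came from RefSeq (GRCm38.p6) and were searched in Python 3.11.15. Alternatives were DESeq2 1.42.0 (size factors, Wald test), library totals, upper quartile, TMM without mitochondrially encoded and immunoglobulin genes, TMM without ribosomal-RNA-like genes (chosen after seeing the data), other count filters, thinning, no block, a fit without robust estimation, all 8 libraries, and leaving out each library. The labels give no replicate numbers: the block is the genotype, and the deviations of the WT libraries from their diet means correlated at −0.055 over 16622 genes.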

Additional observations from a re-analysis of the deposited data

Results flagged for a closer look

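Of the 50 gene lists, 23 had a median log2 ratio of HFD to chow above 0 in one genotype and below 0 in the other, and the 4 given here are those with both medians at least 0.5 in size. The differences between genotypes were not tested, and each genotype has 1 library per diet. The mural list (pericyte and smooth muscle genes) had a median of 0.65 in WT and −0.61 in KO. The list of collagen and basement membrane genes had 1.64 in WT and −0.67 in KO. The skeletal muscle fibre list had 0.78 in WT and −0.96 in KO. The erythroid list had −3.53 in WT and 1.41 in KO, over 4 genes. For the collagen list, the summed level was 2356 CPM in HFD WT, 2552 in HFD KO, 845 in chow WT and 3808 in chow KO, so that the difference in WT moved with the chow WT library, whose part in it was not tested.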

How the results depend on the processing

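Other scalings, count filters, thinning, DESeq2's Wald test and edgeR without robust estimation gave between 18 and 23 called genes, against 19. Leaving the genotype out of the design, the fit with no replicate block, gave 0 called genes and 0 agreeing ones by edgeR (338 at an unadjusted p under 0.05). With all 8 libraries these were also 0 and 0 (1398 unadjusted), and leaving out 1 of the 4 SAT libraries from that fit gave between 0 and 759: 759 without chow KO (312 higher, 447 lower, 7 of them among the 19), 1 without chow WT and 0 without either HFD library. In such a fit the lone SAT library of a diet is assumed to vary like the other groups. Of the 759, 357 had the same direction in both genotypes by the ratios of all 4 libraries, and of the 1 call without chow WT 0 had. The share of genes with the same sign in both genotypes was 42.2% with library totals, against 43.3%, and its split became 20.6% higher and 21.7% lower, against 15.8% and 27.5%. That scaling moved the median log2 ratio of all genes from −0.19 to 0.00 in WT and from −0.10 to −0.03 in KO. Of the 50 lists, 27 had medians of 1 sign in both genotypes, and 22 to 32 under the alternatives. Of the 32 genes run singly (the 24 ranked genes and 8 calls outside that ranking), 0 changed direction under the alternatives. These genes had been picked from the same counts for their difference between diets. A reversal was therefore unlikely from the start, and its absence adds no support. The fixed genes and other list members were not run singly. Depth limits the HFD libraries most: a count of 3 was 0.468 CPM in HFD WT and 0.251 in HFD KO, against 0.18 and 0.182 on chow.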
